A study of Mus musculus with 76 samples.

Results

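The 9 genes described here write, erase and read cytosine methylation at CpG dinucleotides: the methyltransferases Dnmt1, Dnmt3a and Dnmt3b, the maintenance cofactor Uhrf1, the dioxygenases Tet1, Tet2 and Tet3, and the methyl-CpG-binding domain proteins Mbd2 and Mbd3. They were taken by name out of the 56923 genes in the count files, and all 9 passed the filter on low counts in every comparison. The tissue was the diencephalon of C57BL/6J mouse embryos at stages E11.5 (early) and E17.5 (late) of gestation, from wild type crosses and from homozygous crosses in which a human sequence holding the enhancer hs754 stands in place of its mouse counterpart ("humanized"). RNA was sequenced in 16 samples, 4 for each stage and genotype, and each replicate pooled 6 embryos (E11.5) or 3 embryos (E17.5) of 1 litter. Chromatin was mapped in 36 peak lists, 2 lists per genotype for the early stage and 3 for the late one of H3K4me3, H3K27ac and H3K27me3, and 3 lists per genotype at E17.5 for CTCF. The humanized line differs from the wild type at the edited locus on chromosome 13, and none of the 9 genes lies on that chromosome. The paper also proposes that known copy-number variants differed between wild type and humanized samples in some comparisons. These lie on another chromosome, which holds none of the 9 genes.

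DNA methylation is copied to the daughter strand after replication by Dnmt1, which Uhrf1 brings to half-methylated CpG sites, and is laid down on unmethylated DNA by Dnmt3a and Dnmt3b. Tet enzymes oxidize 5-methylcytosine to 5-hydroxymethylcytosine and further products, a form that accumulates in neurons, and base excision repair can then restore cytosine. Mbd2 binds methylated CpG, whereas Mbd3 binds methylated CpG only weakly. Mbd2 and Mbd3 are alternative subunits of the NuRD complex, which joins histone deacetylation to nucleosome remodelling.

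The promoters of these genes span a wide range of CpG content. Printed here are 6 of the 250-base stretches that end just before an annotated start, at starts whose peaks are described below. They were read from the GRCm39 (mm39) reference on the strand of the gene, 5′ to 3′, with every CpG in capitals. Dnmt3a is shown at its canonical start (chr12:3856713-3856962, plus strand, 39 CpG) and at the internal start of the shorter form Dnmt3a-204 (chr12:3941478-3941727, plus strand, 16 CpG). Uhrf1 is shown at its canonical start (chr17:56610025-56610274, plus strand, 7 CpG). Tet1 is shown at 2 annotated starts that carry its peaks, Tet1-210 (chr10:62723292-62723541, minus strand, 8 CpG) and Tet1-202 (chr10:62701084-62701333, minus strand, 6 CpG), and Tet3 at its canonical start (chr6:83433375-83433624, minus strand, 38 CpG). The median over 21757 promoters of protein-coding genes was 8 CpG in the same 250 bases, with quartiles of 3 and 16.
Dnmt3a: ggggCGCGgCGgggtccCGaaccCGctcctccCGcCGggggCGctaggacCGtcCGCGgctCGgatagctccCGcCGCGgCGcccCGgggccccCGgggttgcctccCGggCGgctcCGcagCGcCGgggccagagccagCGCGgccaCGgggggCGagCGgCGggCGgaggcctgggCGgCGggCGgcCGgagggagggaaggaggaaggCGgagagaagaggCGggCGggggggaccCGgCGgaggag
Dnmt3a-204: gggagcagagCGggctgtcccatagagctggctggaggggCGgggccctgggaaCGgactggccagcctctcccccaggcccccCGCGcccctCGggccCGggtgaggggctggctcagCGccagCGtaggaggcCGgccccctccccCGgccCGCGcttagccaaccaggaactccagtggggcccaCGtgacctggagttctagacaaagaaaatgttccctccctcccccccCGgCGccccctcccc
Uhrf1: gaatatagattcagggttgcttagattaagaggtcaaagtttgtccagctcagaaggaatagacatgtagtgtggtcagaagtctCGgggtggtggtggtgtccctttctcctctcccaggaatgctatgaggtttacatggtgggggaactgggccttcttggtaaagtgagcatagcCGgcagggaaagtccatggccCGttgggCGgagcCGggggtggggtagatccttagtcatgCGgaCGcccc
Tet1-210: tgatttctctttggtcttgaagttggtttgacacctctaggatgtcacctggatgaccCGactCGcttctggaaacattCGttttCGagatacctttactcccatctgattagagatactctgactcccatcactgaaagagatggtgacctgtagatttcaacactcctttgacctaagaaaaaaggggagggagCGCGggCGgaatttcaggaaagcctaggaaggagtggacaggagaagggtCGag
Tet1-202: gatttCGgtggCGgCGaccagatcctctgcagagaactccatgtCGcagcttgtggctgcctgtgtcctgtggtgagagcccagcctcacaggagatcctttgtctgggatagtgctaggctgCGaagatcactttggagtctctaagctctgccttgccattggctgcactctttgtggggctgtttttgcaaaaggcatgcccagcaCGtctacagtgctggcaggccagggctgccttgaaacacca
Tet3: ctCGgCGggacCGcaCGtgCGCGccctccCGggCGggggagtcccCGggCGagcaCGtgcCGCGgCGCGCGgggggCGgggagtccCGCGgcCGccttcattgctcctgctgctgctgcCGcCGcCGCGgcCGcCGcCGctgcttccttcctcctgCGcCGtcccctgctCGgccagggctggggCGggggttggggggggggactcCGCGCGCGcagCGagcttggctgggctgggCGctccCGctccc

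In the 2001 bases centred on the start, the ratio of observed to expected CpG was 0.868 at the canonical start of Dnmt3a, 0.821 at Mbd3, 0.81 at Tet2, 0.768 at Mbd2 and 0.725 at Tet3. It was 0.691 at Dnmt3b and 0.604 at Uhrf1. Dnmt1 was at 0.482 and the canonical start of Tet1 at 0.406, beside a median of 0.491 over all promoters, of which 35.4% reached 0.6. Thus 7 of the 9 canonical starts sat in CpG-rich sequence by that limit, and those of Dnmt1 and Tet1 did not.

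All but 1 of the RNA libraries resembled their group. The 16 libraries held 16414369 to 24272569 reads assigned to genes. Replicate 1 of the E17.5 wild type stood apart: its counts differed from those of its group by a chi-square of 213 to 264 per gene, against at most 60.2 for any other pair within a group, and its genes richest in GC ran 1.81 higher on the log2 scale than its genes poorest in GC, relative to its group, against −0.69 to 0.66 in the other libraries. The summed level of 4 red blood cell markers was also highest there among the E17.5 libraries, at 882 CPM (read counts scaled to a common library size), and 210 to 450.2 CPM in the other 7. Microglial markers summed to 57.7 CPM there and 24.2 to 31.5 CPM in the other 7, and endothelial markers to 308 and 176 to 227 CPM. Their part in the results was not tested. The stage and genotype changes of the 9 genes, their order and their family shares are therefore given with and without that library. Of 8 diencephalon markers the summed level was 1252 to 2074 CPM in all 16 libraries, hindbrain Hox genes summed to at most 0.155 CPM, and 4 telencephalon markers summed to 1.44 to 3.02 CPM at E11.5 and 48.2 to 82.8 CPM at E17.5, where the highest was again wild type replicate 1 and the other 7 reached at most 61.1 CPM.

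Between the stages the set changed in opposite directions. The maintenance pair Uhrf1 and Dnmt1, the de novo enzyme Dnmt3b, Tet3 and the reader Mbd3 fell from E11.5 to E17.5 in each genotype, and Tet1 rose in each. The reader Mbd2 also passed as lower in each, by less, but not with offsets for GC content, where its sign turned in the humanized mouse. Uhrf1 fell furthest, 20.7-fold in the wild type and 33.6-fold in the humanized mouse. Dnmt3a and Tet2 rose in the humanized mouse, and in the wild type once replicate 1 of E17.5 was left out. None of the 9 genes passed the test between the genotypes at either stage. The values below are CPM after TMM scaling, with replicates in the order 1 to 4, and each adjusted p is from edgeR's quasi-likelihood test across all genes with Benjamini-Hochberg adjustment. Early and late samples did not overlap for 50.3% of 18583 tested genes in the wild type and 71.8% of 18781 in the humanized mouse. A lack of overlap between stages, given below gene by gene, is therefore not read as particular to these genes. The samples are bulk tissue, so fewer cells of a type and less RNA per cell cannot be told apart.

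**Figure D1:**
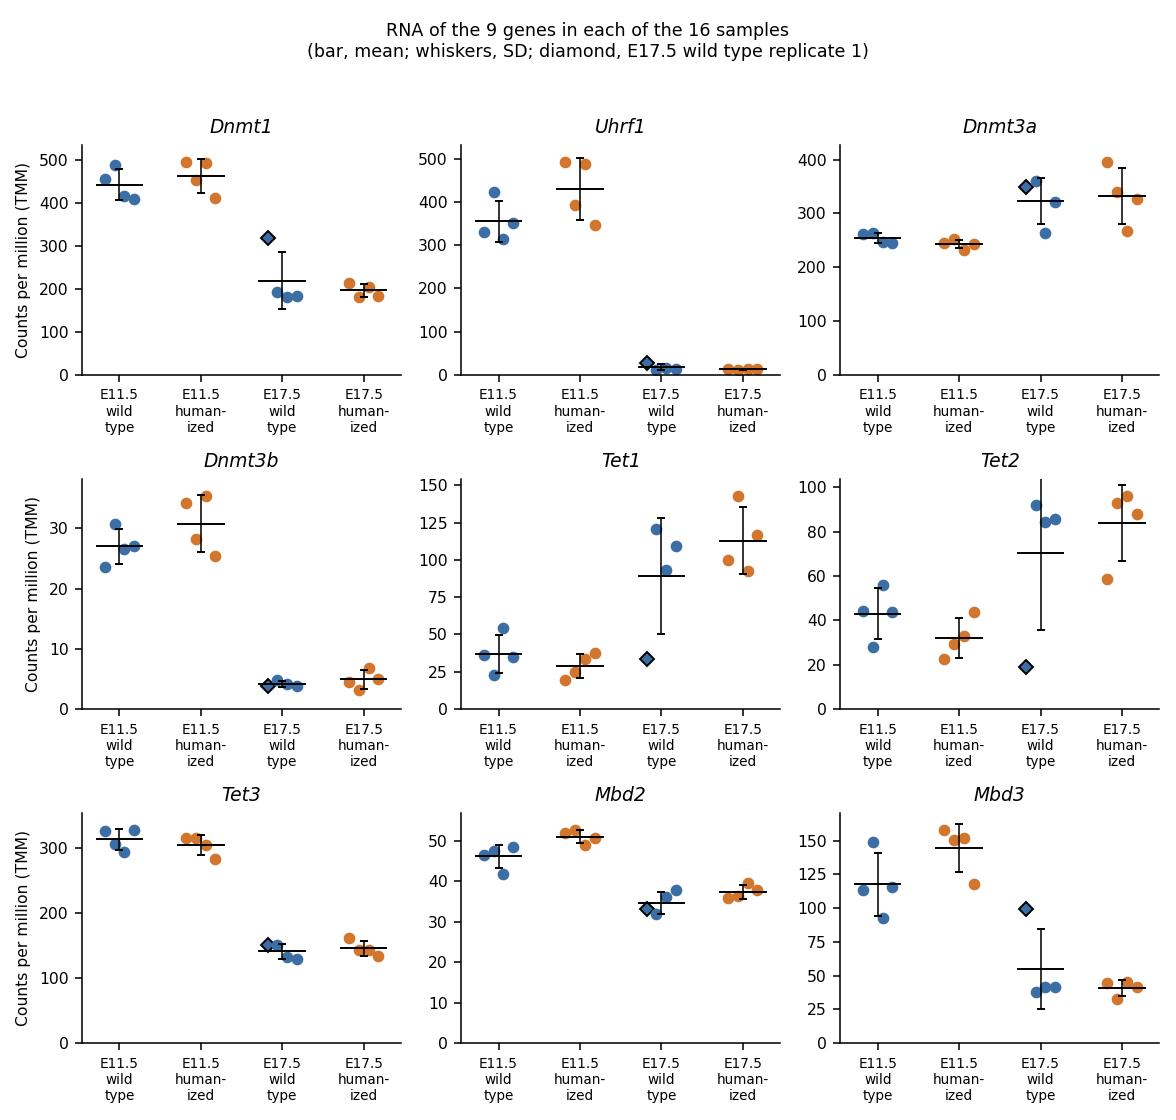
CPM (read counts scaled to a common library size by TMM) of each gene in each of the 16 RNA samples, by stage and genotype, with bars for the mean and whiskers for the SD of 4 samples. Uhrf1 lay at 315 to 493 CPM in the E11.5 samples and at 10.5 to 27.7 CPM in the E17.5 samples, and the diamond marks E17.5 wild type replicate 1.

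Uhrf1 recognizes half-methylated DNA and recruits Dnmt1 to it. Its level in the wild type was 330.1, 424, 315 and 351 CPM at E11.5, and 27.7, 12.3, 14.9 and 13.9 CPM by E17.5. The humanized samples were at 493, 393, 488 and 345 CPM early and 14.1, 10.5, 13.7 and 13.1 CPM late. Every E17.5 sample lay far below every E11.5 sample, and replicate 1 of the E17.5 wild type was the highest of the late ones. The log2 change was −4.38 (SE 0.292, adjusted p = 1.19e-06) in the wild type and −5.07 (SE 0.161, adjusted p = 4.24e-10) in the humanized mouse, and −4.71 (SE 0.162, adjusted p = 4.12e-10) in the wild type without that replicate.

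Dnmt1 is the enzyme that copies methylation at replication. Wild type samples had 454, 487, 416 and 409.7 CPM at E11.5, and 317, 194, 181 and 184 CPM by E17.5. Humanized embryos had 495, 454, 492 and 411 CPM at the early stage and 214, 182, 205 and 184 CPM at the late one. The stages did not overlap in either genotype. Nor did they for 50.3% of all tested genes in the wild type and 71.8% in the humanized mouse. The same replicate of the E17.5 wild type was the closest to the early values. The change on the log2 scale was −1.02 (SE 0.211, adjusted p = 0.00198) in the wild type, −1.27 (SE 0.115, adjusted p = 7.02e-07) without that replicate, and −1.25 (SE 0.105, adjusted p = 4.22e-07) in the humanized mouse. All 26 annotated transcripts of Dnmt1 are summed in these values, since the counts are per gene.

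Dnmt3b is the de novo enzyme of the early embryo. Its level in the wild type was 23.5, 30.8, 26.6 and 27.1 CPM at E11.5, and 3.82, 4.89, 4.13 and 3.84 CPM by E17.5. In the humanized mouse it was at 34.1, 28.3, 35.4 and 25.3 CPM early and at 4.53, 3.16, 6.86 and 5.03 CPM late. The late values rest on 52 to 122 reads per sample and none came near the early ones. The log2 change was −2.70 (SE 0.186, adjusted p = 1.37e-06), a 6.52-fold fall, in the wild type, −2.68 (SE 0.162, adjusted p = 1.96e-08) without replicate 1 of E17.5, and −2.66 (SE 0.206, adjusted p = 2.02e-07) in the humanized mouse.

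Dnmt3a is the de novo enzyme of later brain development. Wild type samples had 262, 263, 246 and 246 CPM at E11.5, and 348, 361, 264 and 321 CPM by E17.5. Levels in the humanized mouse were 245, 252, 233 and 244 CPM at the first stage and 396, 339.9, 268 and 327 CPM at the second. The late values lay above the early ones in both genotypes, narrowly so in the wild type, and replicate 3 was the lowest of both late groups. The log2 change of 0.34 (SE 0.16) in the wild type did not pass the threshold (adjusted p = 0.0935). It was 0.29 (SE 0.123, adjusted p = 0.0498) without replicate 1 of E17.5, and 0.44 (SE 0.126, adjusted p = 0.00649) in the humanized mouse.

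Tet1 and Tet2 oxidize 5-methylcytosine; Tet1 carries a CXXC domain that binds CpG-rich DNA, and Tet2 lacks one. Wild type Tet1 was at 36.3, 22.5, 54.0 and 35.1 CPM early and 33.2, 121, 93.3 and 110 CPM late. The humanized samples were at 19.6, 24.8, 33.7 and 37.7 CPM early and 99.6, 143, 92.8 and 117 CPM late. Replicate 1 of the E17.5 wild type fell among the early values, and the other 7 late samples lay above all 8 early ones. The change on the log2 scale was 1.26 (SE 0.389, adjusted p = 0.0185) in the wild type, 1.53 (SE 0.222, adjusted p = 4.88e-05) without that replicate, and 1.95 (SE 0.218, adjusted p = 4.91e-06) in the humanized mouse. Without replicate 4 of the E11.5 wild type the call in the wild type was lost (adjusted p = 0.0505).

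Tet2 in the wild type was at 44.1, 27.8, 55.8 and 43.8 CPM early and 18.8, 92.2, 84.1 and 85.4 CPM late. Humanized embryos had 22.4, 29.2, 32.7 and 43.6 CPM at the early stage and 58.6, 93.0, 96.1 and 88.0 CPM at the late one. Replicate 1 of the E17.5 wild type was below all 15 other samples, and the remaining late samples lay above all early ones. The log2 change of 0.70 (SE 0.423) in the wild type did not pass (adjusted p = 0.185), and was 1.004 (SE 0.184, adjusted p = 0.00032) without that replicate and 1.37 (SE 0.213, adjusted p = 7.94e-05) in the humanized mouse. The canonical transcripts of Tet1 and Tet2 are poor in GC, at 43.6% and 47.4% beside a median of 49.5% over tested genes, and those of Mbd2, Tet3 and Mbd3 rich, at 56.5%, 60.1% and 62.9%. With offsets for GC content fitted in each sample, a setting added after the data were seen, the wild type change was 0.93 for Tet1 (adjusted p = 0.00133), 0.76 for Tet2 (adjusted p = 0.0748), −1.19 for Tet3 (adjusted p = 0.000206), −1.27 for Mbd3 (adjusted p = 3.2e-06) and −0.21 for Mbd2 (adjusted p = 0.343).

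Tet3 is the Tet enzyme known for its role in the zygote and in neurons. Its level in the wild type was 326, 307, 294 and 328 CPM at E11.5, and 151, 152, 132 and 129.6 CPM by E17.5. In the humanized mouse it was at 316, 316, 305 and 284 CPM early and at 162, 143, 144 and 135 CPM late. The stages were far apart and the replicates close, with replicate 1 of the E17.5 wild type inside its group. The log2 change was −1.16 (SE 0.15, adjusted p = 8.72e-05) in the wild type, −1.21 (SE 0.114, adjusted p = 1.08e-06) without that replicate, and −1.07 (SE 0.101, adjusted p = 1.08e-06) in the humanized mouse. The exons of Tet3 overlap the opposite-strand gene Bola3 over 12.9% of their length, and the counts used do not separate the strands. Counts of the matching strand alone gave the same calls for all 9 genes.

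Mbd3 and Mbd2 are the readers of the set. Mbd3 in the wild type was at 113, 149, 92.6 and 116 CPM early and 99.1, 37.9, 41.8 and 41.4 CPM late. Levels in the humanized mouse were 158, 150.4, 152 and 118 CPM at the first stage and 44.4, 32.4, 45.4 and 41.6 CPM at the second. Replicate 1 of the E17.5 wild type lay within the early range, and the other 7 late samples lay below all early ones. The change on the log2 scale was −1.10 (SE 0.316, adjusted p = 0.0126) in the wild type, −1.56 (SE 0.159, adjusted p = 2.07e-06) without that replicate, and −1.83 (SE 0.132, adjusted p = 1.07e-07) in the humanized mouse.

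Wild type Mbd2 was at 46.5, 47.5, 41.9 and 48.5 CPM early and 33.1, 31.8, 36.0 and 37.7 CPM late. The humanized samples were at 51.9, 52.7, 49.0 and 50.6 CPM early and 35.7, 36.5, 39.5 and 37.7 CPM late. The late values were below the early ones in both genotypes, the smallest fall of the set. The log2 change was −0.42 (SE 0.153, adjusted p = 0.0371) in the wild type, −0.41 (SE 0.121, adjusted p = 0.00838) without replicate 1 of E17.5, and −0.46 (SE 0.0957, adjusted p = 0.00078) in the humanized mouse. This call was lost in the wild type in 7 of 8 fits that left out 1 sample, and with GC offsets. In the humanized mouse GC offsets turned the change to 0.16 (adjusted p = 0.178).

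Counted together, 1 of the 9 genes rose and 6 fell in the wild type, where 29% of 18583 tested genes rose and 26.7% fell. Without replicate 1 of E17.5, 3 rose and 6 fell, beside 36% and 36.3% of 19351 tested genes. In the humanized mouse 3 rose and 6 fell, beside 38.2% and 39.5% of 18781. The median log2 change of the 9 genes was −1.02 in the wild type and −1.07 in the humanized mouse, and that of all tested genes was −0.0147 and −0.0399.

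**Figure D2:**
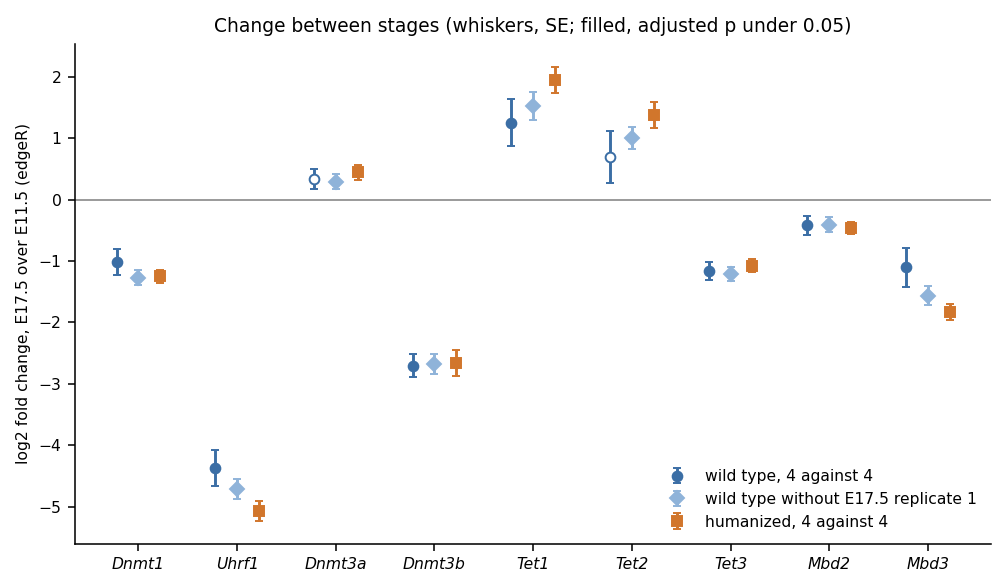
log2 fold change of E17.5 over E11.5 for each gene, with whiskers for the SE, in the wild type, in the wild type without E17.5 replicate 1, and in the humanized mouse; filled points passed an adjusted p under 0.05. Uhrf1 has the largest fall, −4.38 to −5.07, and Tet1 the largest rise, 1.26 to 1.95.

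Markers of dividing cells and neurons moved with these changes. The summed level of 12 cycling-cell genes was 2540 to 3058 CPM in the E11.5 samples and 224 to 268 CPM in the E17.5 samples. In each genotype 12 of 12 fell, with a median log2 change of −3.78 in the wild type. Beside them, 26.7% of all tested genes fell in the wild type and 39.5% in the humanized mouse. The summed level of 8 neuronal genes was 1566 to 2722 CPM at E11.5 and 7070 to 9328 CPM at E17.5. In each genotype 7 of 8 rose, beside 29% of all tested genes in the wild type and 38.2% in the humanized mouse. None of the markers in either list had a group mean under 1 CPM. The summed level of 4 astrocyte markers was 48.1 to 58.5 CPM at E11.5 and 242 to 372 CPM at E17.5. At E11.5, 2 of them (Aqp4 and Gfap) had a mean under 1 CPM in each genotype. The part of cell composition in the changes of the 9 genes was not tested.

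The genes whose pattern over the 16 samples was most like each member were ranked by the root mean square difference of centred log2 CPM over 14826 genes, with stage and library quality shared by all points. For Uhrf1 these were the ubiquitin-conjugating enzyme Ube2c (0.151), the replication helicase subunit Mcm2 (0.167) and the replication licensing factor Cdc6 (0.192), beside a median of 2.42 over all genes. Mcm2 is also among the 12 cycling-cell markers. For Dnmt3b they were Ddx11 (0.149), Sema5b (0.172) and Trip13 (0.181), and for Dnmt1 Txnrd1 (0.0509), Sart1 (0.0653) and Xpo5 (0.0708). For Dnmt3a they were Ube2j1 (0.0882), Epg5 (0.0928) and Glud1 (0.0971). Tet1 was followed most closely by Zfp148 (0.0939), Suco (0.0941) and Cfap97 (0.114), Tet2 by Ints6l (0.118), Dmtf1 (0.12) and Rnf13 (0.128), and Tet3 by Lima1 (0.0776), Sipa1l1 (0.0798) and Ldlrad3 (0.0851). The nearest to Mbd2 were Thyn1 (0.0863), Rtca (0.0878) and Mrps15 (0.088), and to Mbd3 Gnai2 (0.0706), Dcakd (0.0724) and Timm50 (0.0744).

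Levels can be ordered between genes once divided by the length of the merged exons. At E11.5 in the wild type Uhrf1 (72.7 ± 9.90 CPM per kb, SD, n = 4) and Dnmt1 (59.5 ± 4.84) stood at the top with overlapping samples. Tet3 (26.7 ± 1.37), Dnmt3a (24.7 ± 0.922) and Mbd3 (19.8 ± 3.90) followed, each overlapping its neighbour, and Mbd2 (5.92 ± 0.378), Dnmt3b (4.98 ± 0.547), Tet2 (4.26 ± 1.14) and Tet1 (2.57 ± 0.900) formed the low end, again overlapping in that order. On this scale the only gaps between neighbours were those below Dnmt1 and below Mbd3. The order depends on the length used. Per kb of the canonical transcript Uhrf1 (97.6 ± 13.3) stood clear of Dnmt1 (74.5 ± 6.06), Mbd3 came next (70.2 ± 13.9) and overlapped it, and Tet3 (52.8 ± 2.71), Dnmt3a (26.1 ± 0.974) and Mbd2 (23.6 ± 1.51) followed with a gap below each.

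At E17.5 in the wild type Dnmt3a (31.4 ± 4.19 CPM per kb) and Dnmt1 (29.5 ± 8.87) were highest and overlapped. Tet3 was at 12.04 ± 1.02 CPM per kb, Mbd3 at 9.25 ± 4.95, Tet2 at 6.96 ± 3.41, Tet1 at 6.21 ± 2.72, Mbd2 at 4.45 ± 0.345 and Uhrf1 at 3.53 ± 1.44, with overlaps between all neighbours from Tet3 down to Uhrf1. Dnmt3b was lowest, at 0.769 ± 0.0930 CPM per kb, below every sample of Uhrf1. Without replicate 1 Mbd3 was at 6.78 ± 0.359 CPM per kb (n = 3), below Tet2 (8.66 ± 0.427) and Tet1 (7.51 ± 0.968), and there were gaps below Tet3, below Mbd3 and between Mbd2 (4.52 ± 0.391) and Uhrf1 (2.82 ± 0.267), as in the humanized mouse. Uhrf1 went from the first place to the eighth with either length, with and without that replicate. Dnmt3a went from the fourth to the first by merged exons. Per kb of the canonical transcript it was second at E17.5 (33.2 ± 4.43), after Dnmt1 (36.9 ± 11.1), and first without replicate 1 (32.3 ± 5.01, with Dnmt1 at 31.4 ± 1.12), with overlapping samples each time. By merged exons the order in the humanized mouse had the same top and bottom genes at both stages, with Uhrf1 (88.1 ± 14.9) clear of Dnmt1 (62.4 ± 5.28) at E11.5.

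Within each family the makeup shifted. Of the summed methyltransferase level per length in the wild type, Dnmt1 made up 66.7% ± 0.985 (SD, n = 4) at E11.5 and 47.3% ± 5.93 at E17.5, Dnmt3a 27.7% ± 0.903 and 51.4% ± 5.73, and Dnmt3b 5.59% ± 0.548 and 1.28% ± 0.269. In the humanized mouse the share of Dnmt3a was 25.9% ± 2.11 and 54% ± 4.46. The samples of the 2 stages did not overlap for any of these shares. Without replicate 1 of E17.5 the late wild type shares were 44.6% ± 3.09 for Dnmt1, 54% ± 3.14 for Dnmt3a and 1.40% ± 0.134 for Dnmt3b (n = 3). With the length of the canonical transcript Dnmt1 made up 69.7% early and 51.4% late in the wild type and Dnmt3a 24.4% and 47.2%, so which of the pair was larger at E17.5 turned with the length, while the shift between stages did not.

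Of the summed Tet level, Tet3 made up 79.8% ± 5.28 at E11.5 and 50.5% ± 16.8 at E17.5 in the wild type, and 83.4% ± 4.51 and 43.7% ± 5.88 in the humanized mouse. Tet1 went from 7.59% ± 2.42 to 23.5% ± 6.81 and Tet2 from 12.6% ± 2.89 to 26% ± 10.1 in the wild type. Replicate 1 of the E17.5 wild type kept a Tet3 share of 75.5%, inside the early range of 72.9% to 85.8%, and no other late sample exceeded 52%. Without it the late wild type shares were 42.1% ± 1.28 for Tet3, 31.1% ± 0.997 for Tet2 and 26.8% ± 1.75 for Tet1 (n = 3). With the length of the canonical transcript in place of the merged exons the Tet3 share was 88.3% early and 65.1% late in the wild type. Of the 2 readers, Mbd2 made up 23.4% ± 2.61 and 35% ± 9.84 in the wild type and 21.4% ± 2.23 and 41.3% ± 3.50 in the humanized mouse, and the late wild type share was 39.9% ± 1.02 without replicate 1.

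**Figure D3:**
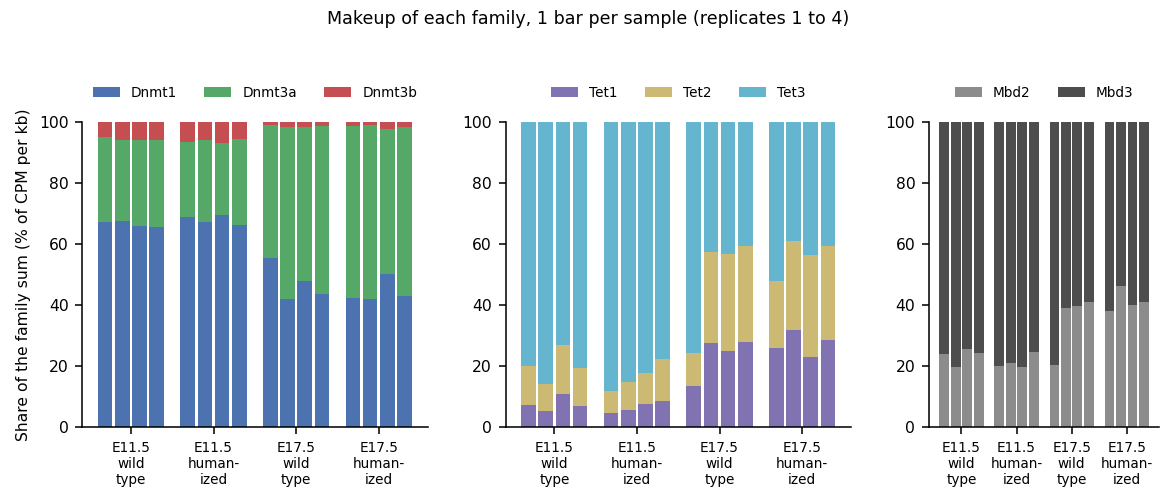
Makeup of the methyltransferase, Tet and reader families in each RNA sample, as a percentage of the family's summed CPM per kb of merged exons, 1 bar per sample. The mean Tet3 share in the wild type went from 79.8% at E11.5 to 50.5% at E17.5, with replicate 1 of E17.5 at 75.5%.

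Genotype made no difference that passed the test. At E11.5 the log2 difference (humanized minus wild type) of the 9 genes ran from −0.45 for Tet2 (SE 0.237) to 0.27 for Mbd3 (SE 0.14), and the lowest adjusted p was 0.577. Of 17816 tested genes 0% passed; 1058 had an unadjusted p under 0.05, and DESeq2 called 2. The 4 humanized values of Mbd2 at E11.5 lay above the 4 wild type values (log2 difference 0.12, SE 0.0887, adjusted p = 0.583), a separation that 2.5% of tested genes shared, and the other 8 members overlapped. At E17.5 none of the 9 separated, beside 1.21% of tested genes.

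At E17.5 the log2 difference ran from −0.44 for Mbd3 (SE 0.311) to 0.34 for Tet1 (SE 0.338), with no adjusted p below 0.808. Of 18763 tested genes 0% passed; 207 had an unadjusted p under 0.05, and DESeq2 called 1. Without replicate 1 of the wild type the range narrowed to −0.10 (Uhrf1) to 0.19 (Dnmt3b), with every adjusted p at 1. The interaction of genotype and stage passed for none of the 9 either, at −0.70 for Uhrf1 (SE 0.305, adjusted p = 0.462), −0.72 for Mbd3 (SE 0.361, adjusted p = 0.462), 0.69 for Tet1 (SE 0.463, adjusted p = 0.468) and 0.68 for Tet2 (SE 0.502, adjusted p = 0.484). Of 20234 tested genes 0% passed the interaction test; 1610 had an unadjusted p under 0.05, and DESeq2 called 0.

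The partners of these genes were taken as further lists. Of all tested genes, 26.7% fell in the wild type and 39.5% in the humanized mouse. Of the maintenance partners, 6 of 7 were tested and 5 fell and 0 rose in each genotype, with a median log2 change of −2.29 in the wild type and −2.02 in the humanized mouse. Cdca7, an activator of the remodeller Hells, went from 182 ± 21.5 to 13.1 ± 1.82 CPM (SD, n = 4) in the wild type (log2 change −3.81, adjusted p = 3.3e-07). Its paralogue Cdca7l changed by −3.33 (adjusted p = 1.26e-06) and Pcna, the replication clamp that Dnmt1 binds, by −2.66 (adjusted p = 1.92e-06). The de novo partners Dnmt3l and Dnmt3c reached at most 0.287 CPM summed in any sample and were not tested.

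Of 14 genes listed under the repair of oxidized or mismatched bases after Tet action, 2 rose and 11 fell in each genotype. The list was not limited to repair enzymes and included Gadd45a and Gadd45g. The median log2 change was −1.21 in the wild type and −1 in the humanized mouse. Among all tested genes 29% rose and 26.7% fell in the wild type, and 38.2% and 39.5% in the humanized mouse. The stress-inducible gene Gadd45g went from 33.8 ± 6.25 to 3.51 ± 1.01 CPM in the wild type (log2 change −3.28, adjusted p = 2.24e-06). The glycosylase Neil3 changed by −2.72 (adjusted p = 3.09e-06), and the DNA-break sensor Parp1 by −2.13 (adjusted p = 3.2e-05). Several of these genes also serve replication and general repair.

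Of the 5 Tet partners, 1 rose and 1 fell in the wild type, where 29% of all tested genes rose and 26.7% fell. In the humanized mouse 3 rose and 2 fell, beside 38.2% and 39.5% of all tested genes. The wild type without replicate 1 of E17.5 also had 3 that rose and 2 that fell, beside 36% and 36.3%. Cxxc4, whose protein carries the CXXC domain that Tet2 lacks, went from 98.8 ± 28.7 to 181 ± 51.9 CPM in the wild type (log2 change 0.86, adjusted p = 0.0252), and Idh2, which makes the cosubstrate 2-oxoglutarate, from 168 ± 25.9 to 60.5 ± 23.1 CPM (log2 change −1.48, adjusted p = 0.000631). The median log2 change of the list was 0.33 in the wild type and 0.47 in the humanized mouse.

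Of 7 other readers, 3 rose and 1 fell in the wild type, beside 29% and 26.7% of all tested genes. In the humanized mouse 5 rose and 2 fell, beside 38.2% and 39.5% of all tested genes. The wild type without replicate 1 of E17.5 also had 5 that rose and 2 that fell, beside 36% and 36.3%. The methyl-binding zinc finger gene Zbtb38 went from 8.83 ± 2.42 to 55.3 ± 23.5 CPM (log2 change 2.63, adjusted p = 0.000128) and Zbtb4 from 12.8 ± 0.933 to 58.6 ± 11.3 CPM (log2 change 2.19, adjusted p = 6.41e-06) in the wild type. Mbd6 changed by −1.07 (adjusted p = 0.000371). The median of the list was 0.56 in the wild type and 1.32 in the humanized mouse. Mbd3 fell, and the smaller fall of Mbd2 was not called with GC offsets.

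Of 13 NuRD subunits, 1 rose and 8 fell in each genotype, with a median log2 change of −0.86 in the wild type and −1.37 in the humanized mouse. Beside them, 29% of all tested genes rose and 26.7% fell in the wild type, and 38.2% and 39.5% in the humanized mouse. The remodelling ATPase Chd5, known for its neuronal expression, went from 6.02 ± 1.35 to 346 ± 149 CPM in the wild type (log2 change 5.84, adjusted p = 6.92e-07). Cdk2ap1 changed by −2.33 (adjusted p = 9.01e-06) and the deacetylase Hdac1 by −1.87 (adjusted p = 6.88e-06). No gene of these lists passed the test between genotypes at either stage. The counts of the maintenance, repair and NuRD lists were the same without replicate 1 of the E17.5 wild type.

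Chromatin was read as the strongest peak within 1000 bases of a start, with the fold enrichment over input that the peak caller gave. H3K4me3 and H3K27ac mark active promoters, H3K27me3 marks promoters held by Polycomb proteins, and CTCF binds insulators and loop anchors. The peak lists allow no test between stages, because the lists differ in size and strength. H3K27ac lists of the wild type held 32418 to 36150 peaks at E11.5 and 62720 to 77419 at E17.5, and the median H3K27ac peak at a promoter had a fold enrichment of 10.2 in both early lists and 18.8 to 21.6 in the late ones. For H3K4me3 the median was 45.2 to 46.0 and 50.7 to 54.9. H3K27me3 lists of the wild type held 13850 to 19166 peaks early and 27452 to 43700 late.

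At the canonical start, 8 of the 9 genes had an H3K4me3 peak in every wild type list at both stages, beside 63.5% of 21757 protein-coding genes at E11.5 and 63.6% at E17.5. The same 8 had an H3K27ac peak in every list, beside 47.3% and 57%. The exception was Tet1, whose canonical start had no peak of any mark in any wild type list. H3K27me3 was present in every list at Dnmt3a and Dnmt3b at E11.5 (background 19.4%) and at Dnmt3b and Uhrf1 at E17.5 (background 19.1%). CTCF was present at E17.5 at 5 of the 9, Dnmt1, Dnmt3a, Dnmt3b, Tet3 and Mbd3 (background 33.6%). The humanized lists held the same marks at the same canonical starts.

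**Figure D4:**
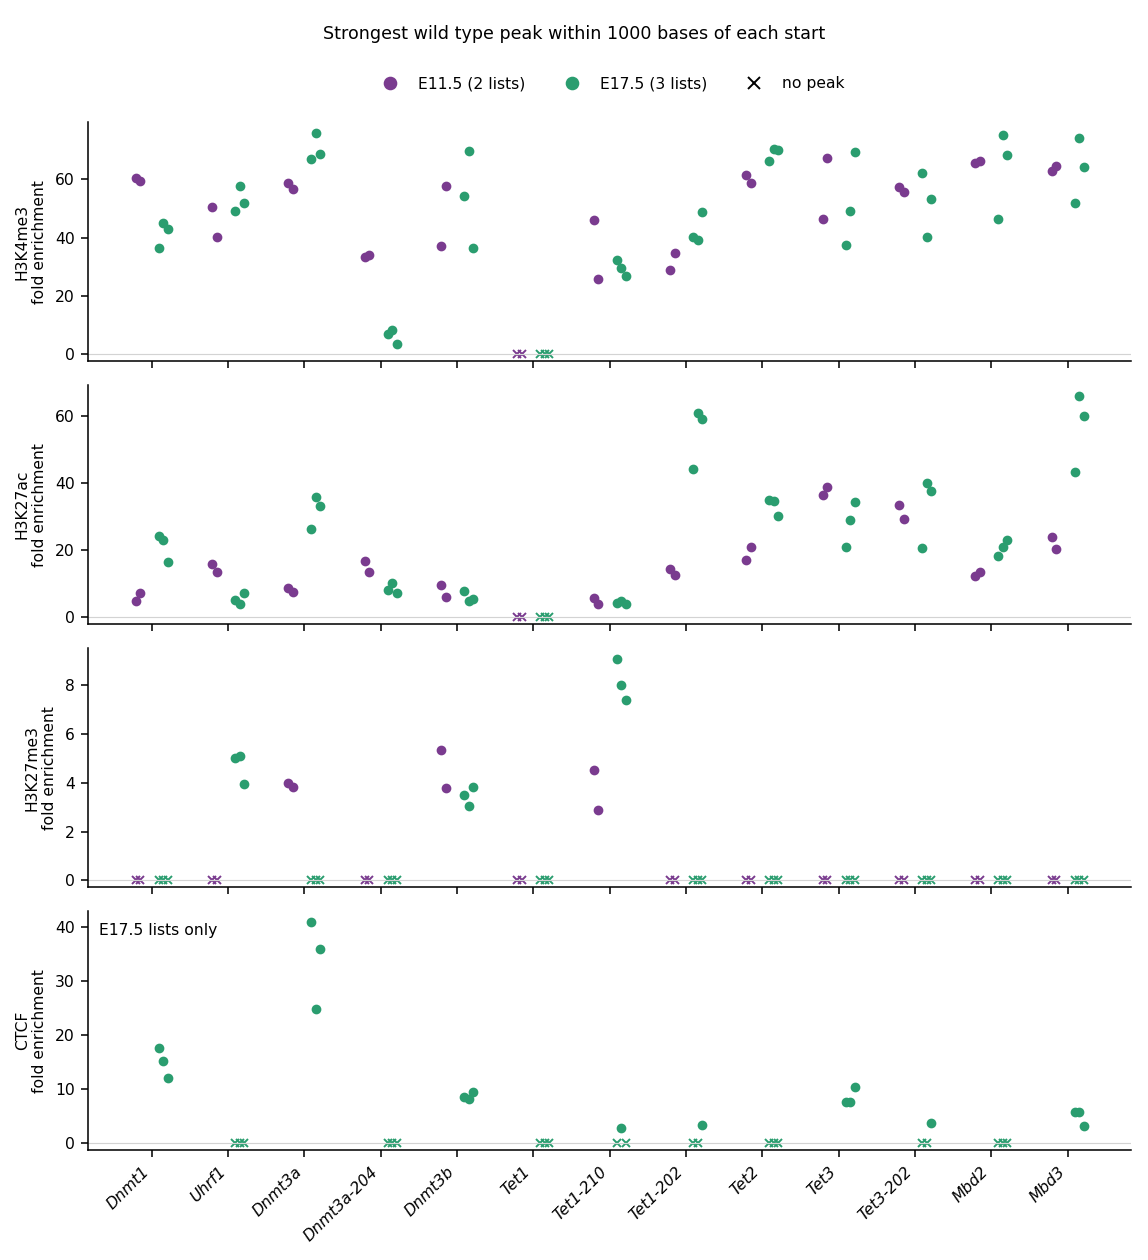
Fold enrichment of the strongest wild type peak within 1000 bases of each start, 1 point per list, for the canonical start of each gene and for 4 further annotated starts; a cross marks a list with no peak. H3K27me3 was called at Uhrf1 only at E17.5, and reaches 7.41 to 9.08 at Tet1-210 at E17.5.

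Uhrf1, the gene with the largest fall in RNA, had H3K27me3 calls only at E17.5, the stage with the larger H3K27me3 lists, and had weaker H3K27ac at its start there. Neither E11.5 wild type list had an H3K27me3 peak there, and the 3 lists at E17.5 had one with fold enrichments of 5.03, 5.09 and 3.94, at the 87.5th to 92.6th percentile of their lists and with −log10 q of 7.38 to 12.9. All 3 humanized lists at E17.5 had one too, at 4.51 to 5.05, and neither humanized list at E11.5 did. H3K27ac was at 16.04 and 13.7 in the early lists and 5.13, 3.85 and 7.23 in the late ones, against the rise of the promoter median. H3K4me3 was at 45.2 ± 7.28 (SD, n = 2) and 52.8 ± 4.30 (n = 3), and its peak was 3587 to 4111 bases wide at E11.5 and 1722 to 2146 at E17.5. The 250 bases before the canonical start, printed above, hold no E2F-type word (TTTCCCGC, TTTCGCGC, TTTGCCGC or TTTGGCGC, on either strand), and nor do those of the other 8 members, beside 2.28% of 21757 promoters with one. Further into the gene, TTTCGCGC begins 182 bases before the start of Uhrf1-211 (chromosome 17 position 56611310) on the gene's strand, and the start that Uhrf1-202 shares with other transcripts (position 56611205) lies between the word and that start.

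Dnmt1 had H3K4me3 in every list, at 59.9 ± 0.576 early and 41.4 ± 4.41 late in the wild type and the other way round, at 50.9 ± 13 and 64 ± 5.82, in the humanized lists. H3K27ac at its start was at 5.003 and 7.26 in the early lists and 24.2, 23.2 and 16.4 in the late ones. Every late list was above both early ones, as the promoter median also was, and the late lists held more peaks. CTCF was at 15 ± 2.72 (n = 3). The RNA of Dnmt1 was lower at the later stage in both genotypes.

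Dnmt3a had H3K4me3 in every wild type list at 2 starts, the canonical one and Dnmt3a-204. At the canonical start H3K27ac was at 8.86 and 7.71 in the early lists and 26.3, 35.8 and 33.4 in the late ones, and H3K4me3 was at 57.7 ± 1.31 and 70.5 ± 4.68. H3K27me3 was called there at E11.5, at 3.98 and 3.81, in both lists, and in 0 of 3 at E17.5. Those early calls lay near the peak limit (−log10 q of 4.81 and 6.14), did not cover the start itself, and dropped out with a −log10 q of at least 5 in every list or an overlap of at least 0.5, so no difference between stages is read from them. At Dnmt3a-204, 84.8 kb further on, H3K4me3 was at 33.6 ± 0.435 early and 6.32 ± 2.33 late, and H3K27ac at 15.2 ± 2.50 and 8.58 ± 1.54. The start with more H3K4me3 in both stages was the canonical one, and the internal one held less of it late than early. At another annotated start, Dnmt3a-220, H3K27ac was called in 1 of 2 early lists (3.56) and in 3 of 3 late ones (10.9 ± 2.60), and H3K4me3 in 0 of 2 and 2 of 3 (4.11 ± 0.292). The shorter form encoded from Dnmt3a-204 has 2067 coding bases against 2724 for the canonical transcript, and the counts per gene do not separate the 2 forms.

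Just before the internal start, a broad H3K27ac block appeared at E17.5. In the 3 wild type lists it ran from 77.2 to 83.6 kb (fold enrichment 39.2), from 77.2 to 83.5 kb (61.7) and from 78.3 to 83.5 kb (60.6) after the canonical start. At E11.5 the same stretch held peaks at 80.2 to 81.5 kb (4.73) and 81.0 to 81.6 kb (4.09). The combined region is chr12:3933957-3940550 in GRCm39, inside the gene, and in the humanized lists its strongest peak was 5.33 early and 53.8 late. CTCF was at 33.9 ± 8.18 (n = 3) at the canonical start, the strongest of the set, and in the body of the gene at up to 16.9.

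**Figure D5:**
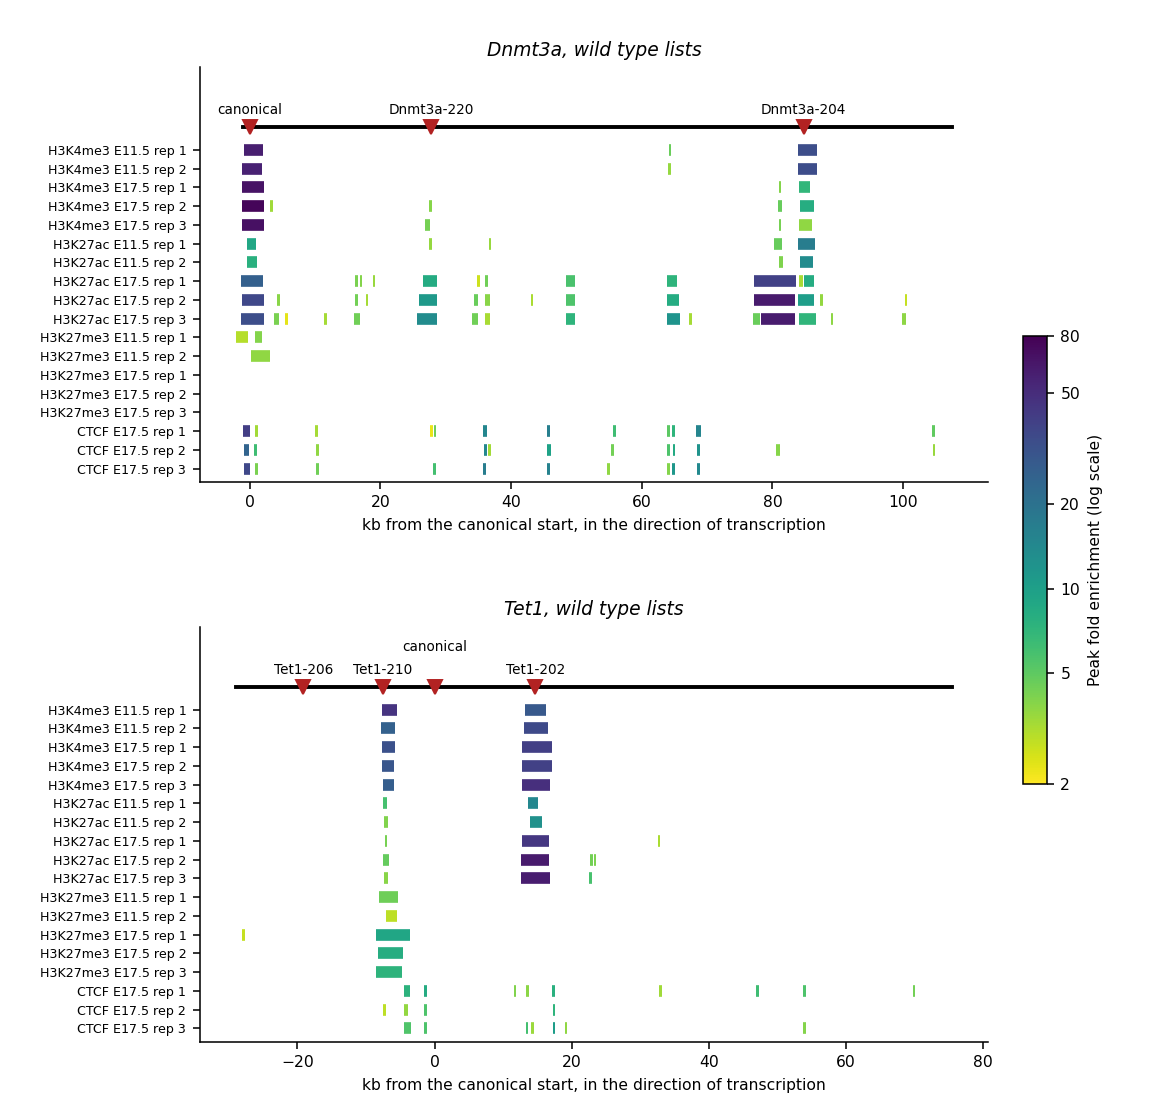
Wild type peaks along Dnmt3a and Tet1, 1 row per list, in kb from the canonical start in the direction of transcription and coloured by fold enrichment on a log scale; triangles mark annotated starts. At Dnmt3a the late H3K27ac block lies just before Dnmt3a-204 (84.8 kb), and at Tet1 the marks lie at Tet1-210 (−7.50 kb) and Tet1-202 (14.7 kb) and not at the canonical start.

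Dnmt3b had the same marks called at both stages, with H3K4me3 at 47.4 ± 14.7 and 53.4 ± 16.5, H3K27ac at 7.95 ± 2.61 and 6.03 ± 1.65, and H3K27me3 at 4.56 ± 1.09 and 3.46 ± 0.406. The H3K27me3 calls were weak, with −log10 q from 4.69 at E11.5 and 3.01 to 5.83 at E17.5, and with at least 5 asked of every list they were lost at both stages. The late H3K27ac values of 7.90, 4.80 and 5.37 were in the 51.6th to 71st percentile of their lists, and the promoter median rose. CTCF was at 8.74 ± 0.616 at its start and reached 34.5 in the body of the gene (chr2:153510127-153511351).

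Tet1 carried its marks away from the canonical start, at 2 annotated starts that were chosen after the peaks were seen, as starts with H3K4me3 in every wild type list of a stage. Tet1-210 lies upstream, at −7.50 kb from the canonical start, and begins a transcript with 142 annotated coding bases. It held H3K4me3 at 36 ± 14.2 and 29.6 ± 2.62, and H3K27me3 at 4.54 and 2.90 in the early lists and 9.08, 7.997 and 7.41 in the late ones, in the 96.2nd to 97.4th percentile of the late lists. Its H3K27ac was weak at both stages, at 4.96 and 4.30 on average.

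Tet1-202 lies 14.7 kb after the canonical start and begins a transcript with no annotated coding sequence. Its H3K27ac was at 14.5 and 12.6 in the early lists and 44.4, 61.2 and 59.3 in the late ones, in the 98.3rd to 99.7th percentile of the late lists, and it had no H3K27me3 peak. H3K4me3 there was at 31.9 ± 4.22 and 42.7 ± 5.20. Tet1 RNA rose with H3K27ac at this start and with H3K27me3 at the other, and the counts do not say from which start a read came. With any annotated start allowed, a choice made after the data were seen, all 9 genes had H3K4me3 at both stages (background 65.6% and 65.8%), and H3K27me3 was present at 3 genes at each stage (background 21.9% and 22.4%), Tet1 being the added one.

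Tet2 held H3K4me3 at 60.1 ± 2.08 and 68.8 ± 2.13 and H3K27ac at 19.2 ± 2.73 and 33.4 ± 2.61, with no H3K27me3 or CTCF peak at its start. Tet3 had the strongest early H3K27ac of the canonical starts, at 37.7 ± 1.75, in the 99.2nd to 99.3rd percentile of those lists, and 28.2 ± 6.80 at E17.5. A second start, Tet3-202, was at 31.5 ± 3.10 and 32.8 ± 10.5. H3K4me3 at the canonical start of Tet3 was at 56.7 ± 14.8 and 52 ± 16.1, and CTCF at 8.59 ± 1.60.

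The readers kept strong promoter marks. The RNA of Mbd3 fell, and that of Mbd2 fell by less, a call that was lost with GC offsets in each genotype. Mbd3 held H3K4me3 at 63.6 ± 1.24 and 63.4 ± 11.1 and H3K27ac at 22.2 ± 2.62 and 56.5 ± 11.7, and CTCF at 4.94 ± 1.52. Mbd2 held H3K4me3 at 65.8 ± 0.536 and 63.3 ± 15 and H3K27ac at 12.9 ± 0.721 and 20.8 ± 2.44. Neither had an H3K27me3 peak at its start. Across the 9 canonical starts, H3K27ac was higher in every late list than in every early list at Dnmt1, Dnmt3a, Tet2, Mbd2 and Mbd3, as it was at the median promoter. It was lower in every late list at Uhrf1 and Tet3. The share of all promoters with either pattern was not counted, so neither is read as particular to these genes.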

How the data were processed

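Reads were processed by the submitters, whose notes name Bowtie2 2.4.2, MACS2 2.2.7.1, deepTools 3.5.1, STAR 2.7.9a and mm39. Libraries were polyA-selected, and per the methods humanized chromatin reads were mapped to a genome carrying the edited allele. The deposited RNA files hold counts of reads per gene from STAR, not normalized and not separated by strand in the column used here. Of all reads, 48.1% to 58.4% were not assigned to a gene. Most of these were unmapped reads, which made up 36.3% to 44.9% of all reads. In the deposited peak lists the authors' caller gave each peak a fold enrichment over input (a ratio), −log10 p and −log10 q values, and a score, per replicate. H3K27me3 lists are broad calls, and how that mark was called is not given in the sources used here. The H3K27ac antibody lot also recognizes H2BK5ac, per the methods.

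Counts were tested with edgeR 4.0.16 in R 4.3.3 (filterByExpr with a minimum count of 10, TMM, glmQLFit, glmQLFTest, adjusted p under 0.05 over all genes), for each stage, each genotype, and the interaction over 16 samples. The study's own test was DESeq2. Promoters were 1000 bases either side of the start of the canonical transcript in GENCODE M39, whose IDs matched 56236 of 56923 genes (98.8%), and an overlap of 1 base counted. Levels per kb used the merged exons. Sequences came from the GRCm39 genome. Text named all 9 members and, per partner list, up to 3 called genes with the largest change between stages in the wild type. The members and lists were chosen with earlier results of these data known. Replicates are separate litters. Alternatives were other scaling (RLE, library totals), no filter, DESeq2 1.42.0, matching-strand counts, 1 fit of 16 samples, the replicate block, leaving out each sample, GC offsets in 20 bins, and other peak limits. Steps were tested on simulated data. Every member value rests on 52 or more reads. Replicate spread was at least 1.5 times the counting error in all groups but those of Dnmt3b in the E17.5 wild type (CV 12.1%, counting error 10.9%) and Mbd2 in both humanized groups.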

Additional observations from a re-analysis of the deposited data

Results flagged for a closer look

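Of 36 groups of 4 RNA samples (9 genes in 4 groups), 4 had a sample whose distance from the others passed Dixon's 95% limit, and chance marks about 1 in 20 groups. All 4 were E17.5 wild type replicate 1. Dnmt1 was at 317 CPM there, and the nearest other replicate was at 194 CPM. Uhrf1 was at 27.7 CPM, with the nearest at 14.9 CPM. Mbd3 was at 99.1 CPM, with the nearest at 41.8 CPM. Tet2 was at 18.8 CPM, below its group, with the nearest at 84.1 CPM.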

How the results depend on the processing

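Without any 1 sample, 0 to 3 genes rose between stages in the wild type and 5 to 6 fell; the count that rose was 3 without E17.5 wild type replicate 1, 2 without its replicate 3 and 0 without E11.5 wild type replicate 4. One fit of all 16 samples gave 2 that rose, as did offsets for GC content, a setting chosen after seeing the data; Dnmt3a was the added gene (log2 change 0.56 with GC offsets). In the humanized mouse 3 rose and 6 fell under every scaling, filter, tool and omission, except that Mbd2 went to 0.16 (adjusted p = 0.178) with GC offsets, its sign reversed. Mbd2 in the wild type also lost its call under RLE scaling (adjusted p = 0.0614), without a filter (0.12) and with GC offsets (0.343). No member was called between genotypes or in the interaction in any setting. Signs of those small differences turned with GC offsets for Dnmt1 (−0.055 at E11.5, 0.082 at E17.5) and Mbd2 (−0.02 at E11.5), and at E17.5 with 1 sample left out for Dnmt1 (−0.238 to 0.069), Dnmt3a (−0.057 to 0.147), Tet2 (−0.06 to 0.44), Tet3 (−0.012 to 0.098) and Mbd3 (−0.558 to 0.015). Scaling by library totals moved the median log2 change of all genes to −0.134 in the wild type and −0.129 in the humanized mouse, and no member call changed.

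With the replicate number as a block, 1 member rose and 5 fell in the wild type (Mbd2 adjusted p = 0.115), 3 rose and 6 fell in the humanized mouse, and 0 were called between genotypes or in the interaction. Same-numbered samples of 2 groups correlated at −0.45 to 0.484 and not above 0.1 in every pair, so the numbers were not taken to pair the samples.

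H3K27me3 calls at the canonical starts of Dnmt3a and Dnmt3b lay near the peak limit, and those of Uhrf1 at E17.5 were stronger. With a −log10 q of at least 5 in every list, H3K27me3 calls were left at 0 genes at E11.5 and at 1, Uhrf1, at E17.5. With an overlap of at least 0.5 of the shorter interval the counts were also 0 and 1. The cause was not tested. The counts of the other marks were within 1.5 times of those given in every setting. Peak lists have 2 or 3 replicates, so a mark absent at 1 stage limits only what these lists called.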
